A study of Homo sapiens with 3 samples.

Results

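Expression of the Eph receptors and their ligands, the ephrins, was compared in a lung cancer cell line and in the osimertinib-resistant lines derived from it. The 10 genes described are the Eph receptors EPHA1, EPHA2, EPHA4, EPHA10, EPHB2, EPHB3 and EPHB4 and the ephrins EFNA1, EFNB1 and EFNB2, of 22 Eph and ephrin genes and 43316 genes on the array. They were chosen by name from a list drawn up with earlier results of these arrays in view, and every non-control probe carrying the gene name was taken, 16 probes in all. Because the list rests on the intensities described here, the values of the 10 genes are a description and no test was made of them.

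Eph receptors form the largest family of receptor tyrosine kinases. They bind ephrins on the surface of a neighbouring cell, so that signals run forward into the cell with the receptor and in reverse into the cell with the ligand. A-type ephrins are held in the membrane by a lipid anchor and bind mainly EphA receptors, whereas B-type ephrins span the membrane and bind mainly EphB receptors. In epithelia the family is known for keeping cell populations apart and for acting on cell contacts and movement, and EPHA2 in particular is known as a signalling receptor in lung adenocarcinoma.

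H1975 (NCI-H1975) is a non-small cell lung cancer line with mutated EGFR that is sensitive to osimertinib, an inhibitor of mutant EGFR. OR1 and OR2 are osimertinib-resistant lines that were selected from it in separate flasks, with doses raised in steps to 2 μmol/L over 4 months, and the study's methods call each of them a clone. All 3 lines thus share the EGFR-mutant background of H1975, and whether the drug was in the medium when RNA was taken is not given in the sources used here. Each line was measured on 1 single-colour Agilent array, and the 3 arrays were on the same slide. There was no replicate, so no p-value was computed, and a difference between lines includes whatever separates 1 culture from another.

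The intensity is the brightness of a spot after the scanner software's background correction. For ratios, intensities were divided by the 75th percentile of their own array, which lay between 138 and 162. The software called 45.6% to 45.9% of 58200 probes well above background, no spot was saturated, and the lowest intensity so called was 11.4 to 12.6. A gene below this call on 1 side of a ratio was set to that lowest intensity, or to its own if higher, and its ratio is then written as "at most" or "at least". With the thresholds of the study, a gene was called lower at a ratio of at most 0.5 and higher at a ratio of at least 2. The study applied them to its own normalized values of each probe, and here they were applied to 1 scaled value per gene. A call also needed the gene to be well above background in the line with the higher level. The technical SD given with a log2 ratio is propagated from the software's error estimate per spot and does not cover the spread between cultures. In OR1 over H1975, 9.58% of 21868 genes were called lower and 9.17% higher, and in OR2 over H1975 8.70% of 21688 genes were called lower and 7.72% higher. The medians over all genes were 0.04 and -0.06 on the log2 scale.

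The epithelial label of the lines was checked on 8 markers of lung adenocarcinoma epithelium, and all 8 were well above background on all 3 arrays. Of them, 5 were called lower in both resistant lines, among them CDH1 (E-cadherin) at ratios of 0.0205 in OR1 and 0.08 in OR2 and EPCAM at 0.037 and 0.0725, and none was called higher. KRT8 (1.12 and 0.964) and KRT18 (0.884 and 0.806) stayed near a ratio of 1. The summed scaled level of the 8 markers read 2927 (H1975), 1149 (OR1) and 1248 (OR2). Of 4 lineage markers of the alveolus, NKX2-1 was well above background in all lines and called lower in OR1 (0.252) but not in OR2 (1.36), and SFTPC, which was dim, was called higher in both (3.78 and 4.87). NAPSA was detected in all lines and called in neither (0.77 and 1.57), and SFTPB was detected in none. Of 6 fibroblast markers, COL1A2 was called lower in both lines and none higher in both. COL1A1 was called lower in OR2 only (0.183) and LUM higher in OR1 only (at least 5.43). Of 4 endothelial markers none was called in both, and PECAM1, which was dim, was called higher in OR1 only (2.10). Of 4 leukocyte markers CD14 was called higher in both. The part of the epithelial change in the Eph and ephrin values was not tested.

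Most of the 10 genes read lower in the resistant lines than in H1975, and 1 ephrin read higher. Of the 10 genes, EPHA1, EPHA10, EPHB2, EPHB3 and EFNB2 were called lower in both resistant lines, against 6.32% of all 22417 genes detected on at least 1 array. EFNB1 was called higher in both, against 5.09% of them. All 7 receptors and 2 of the 3 ephrins had ratios below 1 in both lines, with a median log2 ratio over the 10 genes of -1.54 in OR1 and -1.27 in OR2. EPHA2 in OR2 lay so near 1 that other ways of scaling put it at 0.968 to 1.03. OR1 and OR2 were set against the same H1975 array, so an error of that array enters both ratios alike. Because the genes were selected on these contrasts, nothing is read from the share called.

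**Figure D1:**
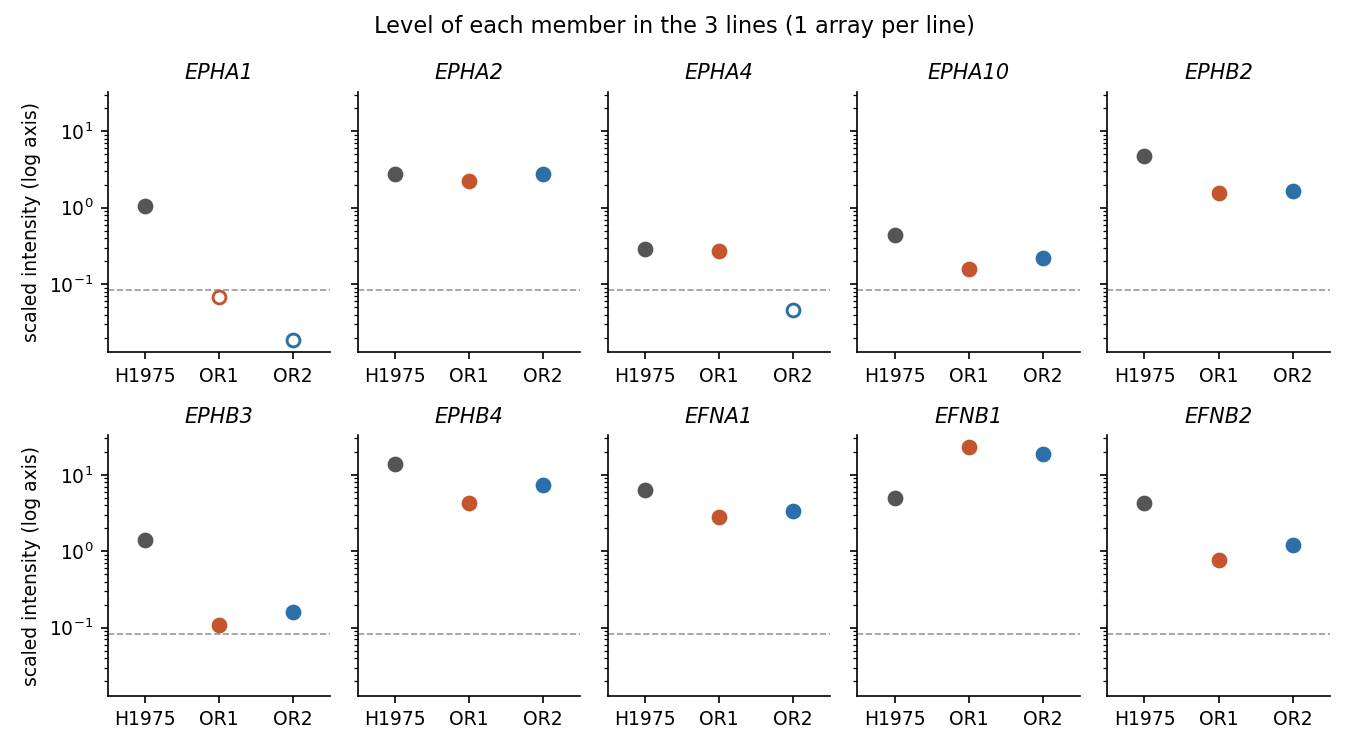
Level of each of the 10 genes in H1975, OR1 and OR2, as intensity divided by the 75th percentile of its array, on a log axis, with 1 point per array. Filled points are well above background, open points are not, and the dashed line is the highest of the arrays' lowest levels called well above background. EPHA1 lies under that line in both resistant lines, EPHA4 in OR2, and EFNB1 is the gene that lies above its H1975 level in both. Panels of different genes rest on different probes and do not give their relative abundance.

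EPHA1, the founding member of the family and a receptor for A-type ephrins, was lost from detection in both resistant lines. The H1975 array read an intensity of 167, the OR1 array 9.28 and the OR2 array 2.97, and only the first was well above background. The bound on the ratio was therefore 0.0781 for OR1 and 0.0737 for OR2, or at least 12.8-fold and 13.6-fold lower. With normexp, another background correction, the bounds were 0.345 and 0.312, so the call held and the size did not. No ratio between OR1 and OR2 can be given. Its only probe (NM_005232) lies on chr7:143090922-143091310 of hg19, minus strand, and covers 389 bases of genome with 60 bases of sequence, so it crosses an intron and reports spliced RNA. It is shown because the whole EPHA1 result rests on it:
EPHA1 probe: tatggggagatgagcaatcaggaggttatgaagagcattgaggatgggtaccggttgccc

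EPHA2, a main receptor of EFNA1 and a kinase often abundant in lung cancer cells, differed least over both lines. Intensities were 438 (H1975), 310 (OR1) and 442 (OR2), all well above background. After scaling, the ratio was 0.806 in OR1 (log2 -0.31, technical SD 0.20) and 0.982 in OR2 (log2 -0.03, technical SD 0.20). The value for OR2 lay within 1 technical SD of no difference. The probe (NM_004431) also crosses at least 1 intron, at chr1:16451800-16455972 of hg19, minus strand, and is shown as the family's point of little difference:
EPHA2 probe: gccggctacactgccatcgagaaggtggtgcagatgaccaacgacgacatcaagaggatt

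EPHA4, a receptor that binds ephrins of both types, separated the resistant lines. Intensities were 45.8 (H1975), 37.2 (OR1) and 7.36 (OR2), and the last was not well above background. The ratio was 0.926 for OR1 (log2 -0.11, technical SD 0.25) and had an upper bound of 0.268 for OR2 and of 0.29 between OR2 and OR1, so that it is at most that large. EPHA4 was the only one of the 9 genes with a ratio between OR2 and OR1 that was called lower there, against 2.89% of 21451 genes, and none was called higher, against 2.48%. All of its values were dim. With normexp and its offset the upper bound for OR2 was 0.657, so whether the ratio is past 0.5 is then not known.

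EPHA10, a family member whose kinase domain is inactive, was dim in all lines. The brightest of its 4 probes read 68.9 (H1975), 21.5 (OR1) and 35.4 (OR2), and the other 3 probes did not reach detection in any line. The ratio was 0.356 in OR1 (log2 -1.49, technical SD 0.29) and 0.499 in OR2, where the technical SD was 0.25 in log2 units. The OR2 ratio was the value closest inside the threshold of 0.5, and EFNA1 in OR2, at 0.523, was the closest outside it. With quantile normalization, no scaling, spike-in scaling or the authors' normalized values, EPHA10 was no longer called lower in both lines. The same held with normexp and with the 75th percentile taken only over probes well above background.

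EPHB2, a receptor for B-type ephrins and a known sorting receptor of epithelial cells, was measured by 3 probes within 1 stretch of chromosome 1. The intensity of the brightest (chr1:23240041-23240100 of hg19, plus strand, NM_004442) was 750 for H1975, 217 for OR1 and 266 for OR2. Its ratio was 0.331 in OR1 (log2 -1.60, technical SD 0.20) and 0.346 in OR2 (log2 -1.53, technical SD 0.20). The other probes gave 0.306 in OR1 each, and 0.47 and 0.411 in OR2, so all 3 probes were past 0.5 in both lines. Between OR2 and OR1 they gave 1.04, 1.34 and 1.54, so the probes differ on whether the lines differ from each other.

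EPHB3, the close relative of EPHB2 that also binds B-type ephrins, had the lowest measured ratio among the listed genes detected in every line. It read 220 in H1975 but 15.1 in OR1 and 25.6 in OR2, well above background on each array but near its limit in OR1. The ratio was 0.0781 in OR1 (12.8-fold lower, log2 -3.68, technical SD 0.33) and 0.113 in OR2 (8.85-fold lower, log2 -3.15, technical SD 0.27). The lines differed from each other by a ratio of 1.45 (OR2 over OR1, log2 0.53, technical SD 0.37). With normexp, whose offset draws ratios of dim genes towards 1, the ratios over H1975 were 0.302 and 0.297, still past 0.5. The only EPHB3 probe (NM_004443) is at chr3:184299825-184299884 of hg19, plus strand.

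EPHB4, the receptor known for its pairing with ephrin-B2, had a lower ratio in OR1 than in OR2. The intensity of its brighter probe (chr7:100400531-100400590 of hg19, minus strand, NM_004444) was 2169 for H1975, 595 for OR1 and 1200 for OR2. The ratio was 0.313 in OR1 (log2 -1.68, technical SD 0.20), 0.538 in OR2 (log2 -0.89, technical SD 0.20) and 1.72 between OR2 and OR1 (log2 0.78, technical SD 0.20). The other probe, which crosses an intron at chr7:100401166-100402800, read 620, 153 and 349 and gave 0.282, 0.547 and 1.94. Both probes thus put EPHB4 past 0.5 in OR1 and just short of it in OR2. The second probe is shown because it gives the same picture from spliced RNA:
EPHB4 probe: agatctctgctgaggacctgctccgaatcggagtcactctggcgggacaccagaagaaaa

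Among the ligands, EFNA1 (ephrin-A1), the A-type ephrin that binds EPHA2 and EPHA1, was the listed gene with repeat spots. Its probe (chr1:155106767-155106826 of hg19, plus strand, NM_004428) was spotted 10 times per array. The 8 usable spots of H1975 ranged from 961 to 1087 before scaling between arrays. The 10 of OR1 ran from 350 to 404 and the 10 of OR2 from 507 to 597. Repeat spots share 1 RNA and 1 array per line, so their spread shows precision within an array and not between cultures. The SD between spots was 0.06, 0.07 and 0.08 on the log2 scale. The ratio was 0.436 in OR1 (log2 -1.20, technical SD 0.20), 0.523 in OR2 (log2 -0.93, technical SD 0.20) and 1.20 between OR2 and OR1. EFNA1 was thus called lower in OR1 and fell short of the call in OR2.

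EFNB1 (ephrin-B1), a transmembrane ligand of the EphB receptors, was the member that rose. From an intensity of 788 in H1975 it went to 3164 in OR1 and 3006 in OR2. The ratio was 4.58 in OR1 (log2 2.20, technical SD 0.20) and 3.71 in OR2 (log2 1.89, technical SD 0.20), and the resistant lines differed from each other by a ratio of 0.811, which turned to 1.29 with spike-in scaling. Over 12 other processing settings the ratio ran from 3.02 to 4.73 in OR1 and from 3.56 to 3.98 in OR2. The only probe (NM_004429) is at chrX:68061833-68061892 of hg19, plus strand.

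EFNB2 (ephrin-B2), the ligand of EPHB4 and a known marker of arterial endothelium, went the opposite way. From 675 in H1975 it went to 105 in OR1 and 198 in OR2. The ratio was 0.178 in OR1 (5.62-fold lower, log2 -2.49, technical SD 0.21) and 0.285 in OR2 (3.51-fold lower, log2 -1.81, technical SD 0.21), and OR2 read 1.60 times OR1. The 2 B-type ephrins of the list therefore moved in opposite directions in the same RNA samples. The EFNB2 probe (NM_004093) is at chr13:107142736-107142795 of hg19, minus strand. As the arrays measure bulk RNA, fewer cells that express a gene and less of its RNA per cell cannot be told apart here or for any other gene.

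**Figure D2:**
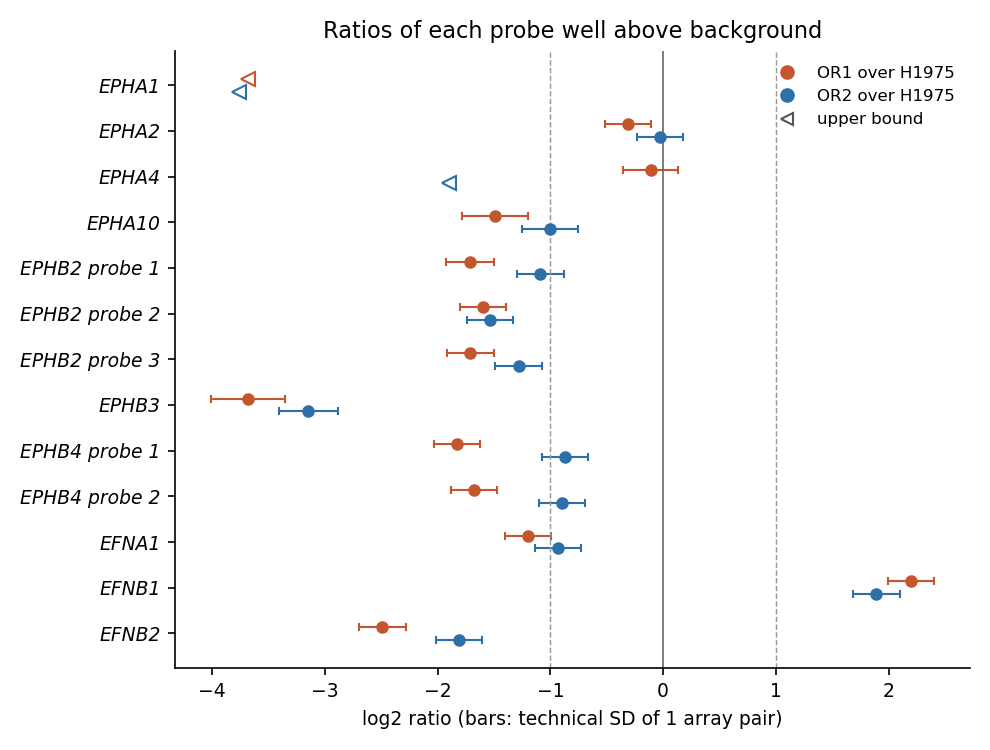
Log2 ratio of each probe of the 10 genes that was well above background on at least 1 array, OR1 over H1975 and OR2 over H1975. Bars are the technical SD of 1 pair of arrays, open triangles are upper bounds, and dashed lines mark ratios of 0.5 and 2. The 2 EPHB4 probes lie close together within each line. The 3 EPHB2 probes do so in OR1 but run from -1.53 to -1.09 in OR2. EPHB3 and EPHA1 lie farthest to the left, and EFNB1 alone lies to the right of 1.

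Apart from the calls, OR1 tended to lie farther from H1975 than OR2 for the listed genes. Over all genes, too, more were called in OR1 than in OR2 in each direction. Between OR2 and OR1, 7 of the 9 genes with a ratio lay above 1, against 9332 of 21432 of all genes. Those below 1 were EPHA4 and, except with spike-in scaling, EFNB1. As EFNB1 rose, at 4.58 in OR1 and 3.71 in OR2, it too lay farther from H1975 in OR1, except with spike-in scaling. The median log2 ratio of OR2 over OR1 was 0.28 against -0.07 over all genes. Because the genes were chosen on these intensities, nothing is read from this count or this median. The largest difference between OR2 and OR1 among listed genes detected in both was that of EPHB4, at 1.72, followed by EFNB2 at 1.60. None passed a ratio of 2, and the differences of EPHB2, EFNA1, EPHA2, EPHB3 and EFNB1 ran from 0.31 to 1.48 technical SD of their own log2 ratio. Scaling on spike-in probes lowered all OR1 ratios by 0.60 on the log2 scale and put EPHB4, EFNB2, EPHB3 and EPHA10 past 2 between OR2 and OR1, at 2.74, 2.55, 2.30 and 2.23, and EPHB4 was at 2.02 without scaling. With normexp EPHB3 was at 0.985, on the other side of 1.

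The other 12 genes of the family were less often detected. The receptors EPHA3, EPHA5, EPHA6, EPHA7, EPHA8, EPHB1 and EPHB6 and the ligand EFNA2 were below detection in every line, with intensities from 2.30 to 11.2, so the 7 listed receptors are all of the receptors that these arrays detected. EFNB3 (ephrin-B3), the remaining B-type ephrin, read 29.9 (H1975), 121 (OR1) and 290 (OR2). Its ratio was 4.62 in OR1 (log2 2.21, technical SD 0.26), 9.43 in OR2 (log2 3.24, technical SD 0.25) and 2.04 between OR2 and OR1, so that EFNB1 and EFNB3 were called higher in both lines and EFNB2 lower. With normexp, whose offset draws ratios of dim genes towards 1, the EFNB3 ratios were 2.20 in OR1 and 3.81 in OR2. Between OR2 and OR1 the ratio was then 1.73, no longer past 2. EFNA4 read 676, 346 and 462, with ratios of 0.584 and 0.665. EFNA5 read 37.4, 44.8 and 53 (1.36 and 1.38), and EFNA3, which was near the background, 17.5, 16.1 and 33.7 (1.05 and 1.87). Over the 22 genes, 14 were detected on at least 1 array, 5 were called lower in both lines and 2 higher, against the 6.32% and 5.09% of all detected genes.

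**Figure D3:**
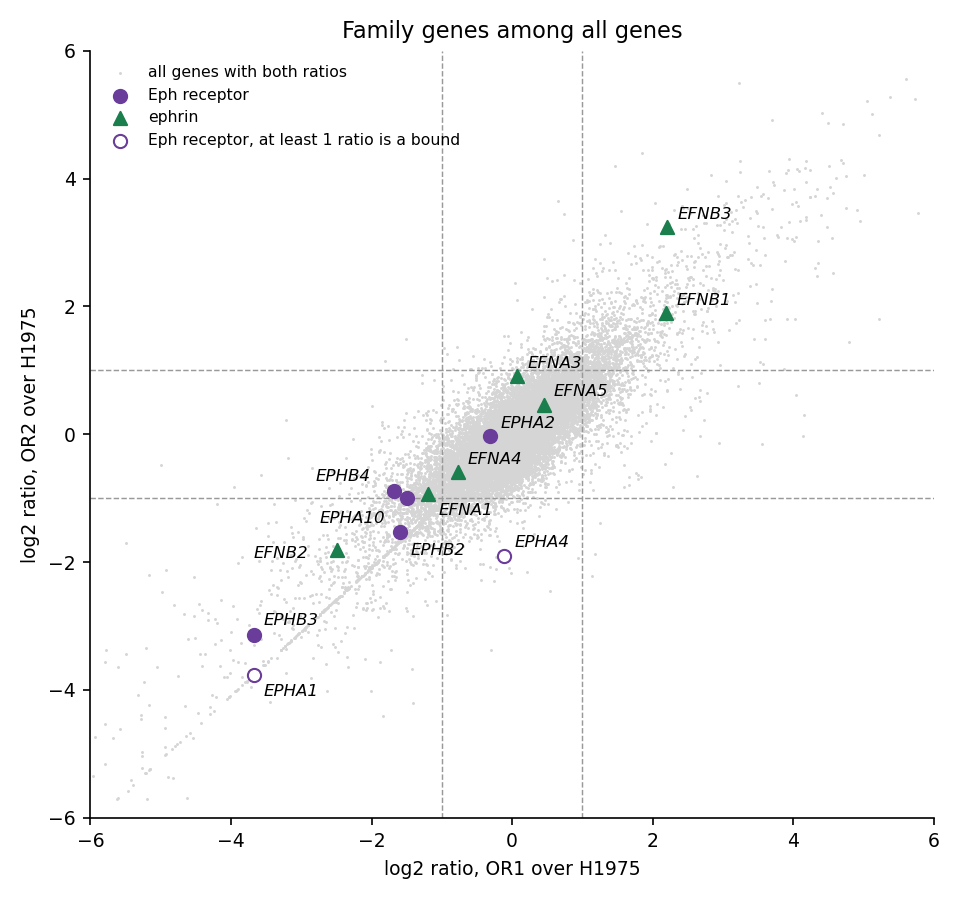
Log2 ratio in OR2 against log2 ratio in OR1, both over the same H1975 array, for 21131 genes with both ratios (grey) and the detected family genes, with receptors as circles and ephrins as triangles. Dashed lines mark ratios of 0.5 and 2, open circles have at least 1 ratio that is an upper bound, and 24 genes past the axes are not drawn. The receptors lie at or below 0 on both axes, EFNB1 and EFNB3 lie in the upper right, EFNB2 in the lower left, and EPHA4 is set apart by its OR2 value. The shared H1975 array by itself stretches the cloud along the diagonal.

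The genes whose pattern was most like that of EFNB1, taken for this because its probe had the highest intensity among the genes called in both lines, were DEPDC7, LY6G5C and LOC101927886. They lay within 0.03, 0.06 and 0.08 of EFNB1 in Euclidean distance over the 2 log2 ratios, among 18588 genes detected on every array, of which 23 lay within 0.2. DEPDC7, for example, read 83.9 in H1975, 344 in OR1 and 316 in OR2. With 3 arrays this likeness rests on 2 ratios that share a denominator, and it is given as a description.

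Downstream of the receptors and ligands, most genes were not called in both lines. On a list of 38 genes of Eph and ephrin signalling, 36 were detected on at least 1 array, 4 were called lower in both lines and 3 higher, against 6.32% and 5.09% of all detected genes, and the median log2 ratio was 0.07 in OR1 and 0.14 in OR2, beside 0.04 and -0.06 over all genes. The list was compiled with the earlier results known. KALRN, an exchange factor known to act with EphB receptors in neurons, read 393, 15.7 and 64.2, with ratios of 0.0454 and 0.159. The Ras-GTPase-activating protein RASA1, which binds activated EphB receptors, read 1306, 352 and 563 (0.308 and 0.419). The adaptor GRB7 read 550, 101 and 193 (0.21 and 0.341). The rhomboid protease RHBDL2, known to cleave ephrin-B3, read 202, 28.6 and 51.5 (0.162 and 0.249). These values are of the brightest probe, of 6 for KALRN and of 3 for RHBDL2. With the median over the probes of a gene, 3 signalling genes in place of 4 were called lower in both lines. GRB7 and RASA1 have 1 probe each, so KALRN or RHBDL2 or both lost the call. The low ratio of at least 1 of them thus depends on the choice of probe.

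The 3 genes called higher were a phosphatase, an exchange factor and a GTPase-activating protein. PTPN13, a phosphatase that binds the tail of B-type ephrins, was below detection in H1975 at 9.52 and read 208 in OR1 and 226 in OR2, ratios of at least 18.8 and at least 17.5. VAV3, an exchange factor recruited by Eph receptors, read 154, 909 and 879 (6.74 and 5.56). CHN1, a Rac-GTPase-activating protein known to act below EPHA4 in axon guidance, read 45.2, 295 and 213 (7.43 and 4.58). Among the proteases that cut Eph receptors and ephrins, ADAM10 (1.06 and 0.805), ADAM17 (0.927 and 0.936) and MMP14 (1.54 and 1.11) were not called.

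EPHA1 and EPHB4 both lie on the long arm of chromosome 7, and their neighbours there were also lower. Of the 20 genes nearest to EPHA1 that were detected on all arrays, within 1.72 Mb, 8 were past 0.5 in OR1 and 6 in OR2, and their median log2 ratios were -0.91 and -0.81. None of the 20 was as low as the bound for EPHA1, which was -3.68 and -3.76. Of the 20 nearest to EPHB4, within 0.587 Mb, 6 and 2 were that low, the medians were -0.83 and -0.49, and 2 lay below EPHB4 in OR1 and 4 in OR2. Over the whole stretch from 90 to 150 Mb (hg19), 39.4% of 373 genes were past 0.5 in OR1 and 15.5% in OR2, against 7.30% and 6.51% of the 18175 other genes with a position. Its median log2 ratios were -0.84 and -0.50, against 0.04 and -0.05 elsewhere. The bounds of the stretch were set with earlier results of these arrays known, so the contrast is only a description. The part of this shift in the EPHA1 and EPHB4 values was not tested.

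On other chromosomes the listed genes differed in how they lay among their neighbours. EPHB3 (chromosome 3), EFNB2 (chromosome 13) and EPHB2 (chromosome 1) lay below all 20 of their neighbours in both lines, whose median log2 ratios ran from -0.09 to 0.25. These neighbours spanned 1.19 Mb for EPHB3 and 1.61 Mb for EPHB2 but 7.96 Mb for EFNB2, where the comparison is less local. The spans were also wide for EFNB1 (3.57 Mb) and EPHA4 (3.44 Mb). EFNB1 (chromosome X) and EFNB3 (chromosome 17) lay above all 20 of theirs, with neighbour medians of 0.05 and 0.47 in OR1 and 0.09 and 0.42 in OR2. EPHA2 lay among its neighbours, with 4 of 20 below it in OR1 and 9 in OR2, and so did EPHA4 in OR1, with 7 below it, whereas none of the 20 was below its bound in OR2. EPHA10 had 0 and 1 neighbours below it in OR1 and OR2, and EFNA1 had 1 and 0.

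**Figure D4:**
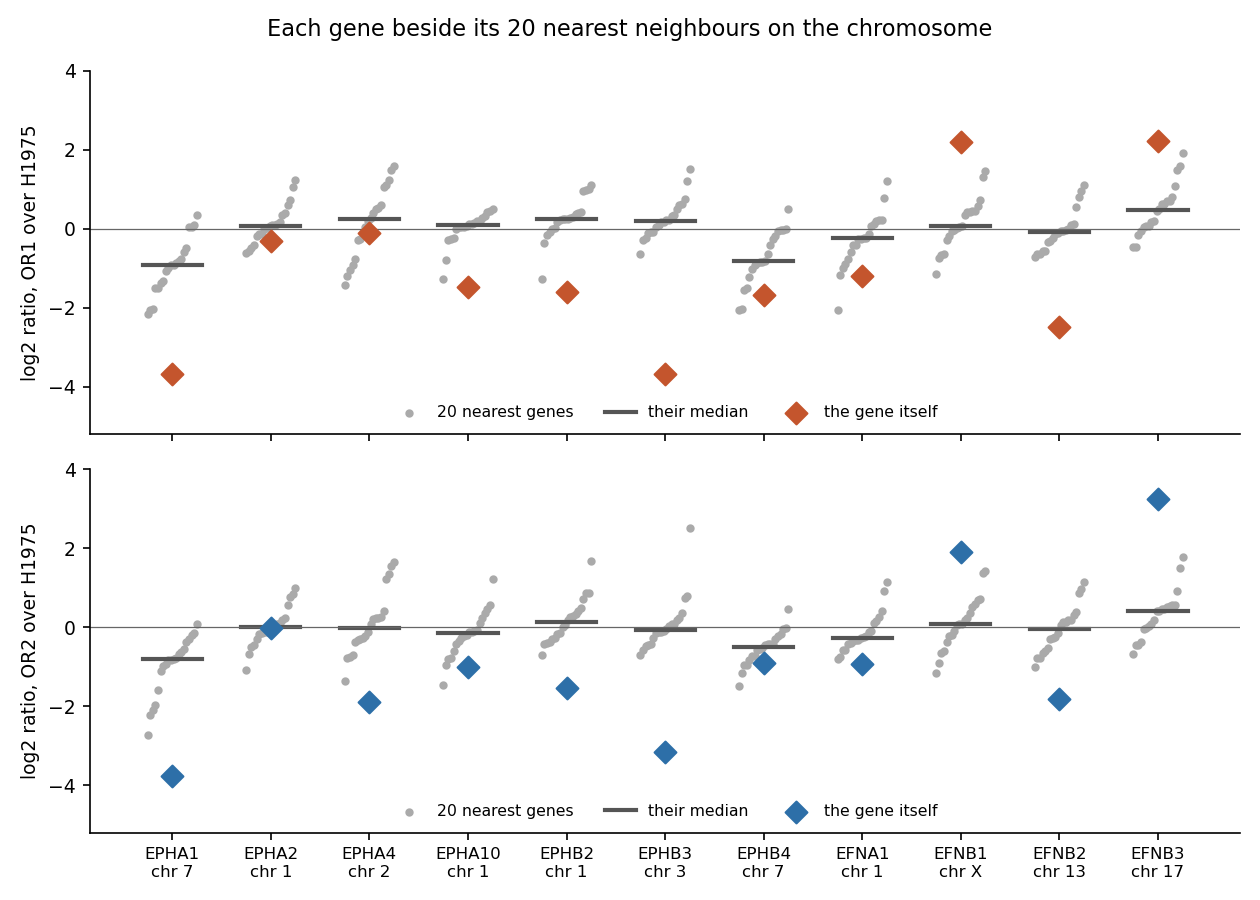
Log2 ratio over H1975 of each listed gene and EFNB3 (diamond) beside the 20 nearest genes on its chromosome that were well above background on all arrays (grey dots, sorted by value, with their median as a bar), OR1 above and OR2 below. The EPHA1 diamonds and the EPHA4 diamond in OR2 are upper bounds. The neighbours of EPHA1 and EPHB4 on chromosome 7 are shifted downward, with medians of -0.91 and -0.83 in OR1, whereas the neighbours of EPHB3, EFNB2 and EFNB1 centre near 0.

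Because several of the genes moved together, the 250 bases before their transcription starts were examined, from RefSeq sequence of build GRCh38.p14 on the strand of the gene. Such a window was used for 9 of the 10 genes, with the first listed start where there were several, and EPHA10 is the gene without one. The motifs were searched by exact letters on both strands: the E-box CACCTG, to which repressors of the SNAI and ZEB families are known to bind, the AP-1 motif TGACTCA, the TCF/LEF core CTTTGA and the GC box GGGCGG. The E-box was found in 3 of the 9 windows, those of EPHA1, EPHB2 and EFNB2, and in 17.5% of all 35116 windows. The GC box was in 9 of 9, against 42.6% of all windows, the TCF/LEF core in that of EPHA2 (11.2% of all), and the AP-1 motif in none (4.20% of all). The windows of the 9 genes held 43.2% to 84.8% G and C, against a median of 58% over all windows, and 8 of the 9 lay above that median. A match is a match of letters and not evidence of binding.

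Shown are the 3 windows with an E-box, in capitals, and those of EPHB3 and EFNB1, the deepest measured fall and the rise among the listed genes, which hold none and carry no capitals. EPHA1 is at chr7:143408857-143409106 (minus strand), EPHB2 at chr1:22710588-22710837 (plus), EFNB2 at chr13:106535663-106535912 (minus), EPHB3 at chr3:184561535-184561784 (plus) and EFNB1 at chrX:68828771-68829020 (plus):
EPHA1: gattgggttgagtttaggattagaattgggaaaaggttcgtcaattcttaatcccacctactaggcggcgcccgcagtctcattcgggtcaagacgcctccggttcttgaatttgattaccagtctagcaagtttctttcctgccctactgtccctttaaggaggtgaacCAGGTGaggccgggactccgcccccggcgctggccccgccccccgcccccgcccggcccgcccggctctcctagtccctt
EPHB2: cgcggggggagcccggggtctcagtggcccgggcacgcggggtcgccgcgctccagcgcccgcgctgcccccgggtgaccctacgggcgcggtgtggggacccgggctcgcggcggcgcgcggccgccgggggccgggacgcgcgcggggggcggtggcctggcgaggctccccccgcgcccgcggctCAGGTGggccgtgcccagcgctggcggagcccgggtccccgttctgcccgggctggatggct
EFNB2: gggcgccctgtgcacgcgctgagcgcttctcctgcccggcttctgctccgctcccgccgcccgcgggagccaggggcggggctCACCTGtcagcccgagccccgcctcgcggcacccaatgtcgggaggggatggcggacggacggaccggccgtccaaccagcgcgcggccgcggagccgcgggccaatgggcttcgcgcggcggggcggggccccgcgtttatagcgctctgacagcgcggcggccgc
EPHB3: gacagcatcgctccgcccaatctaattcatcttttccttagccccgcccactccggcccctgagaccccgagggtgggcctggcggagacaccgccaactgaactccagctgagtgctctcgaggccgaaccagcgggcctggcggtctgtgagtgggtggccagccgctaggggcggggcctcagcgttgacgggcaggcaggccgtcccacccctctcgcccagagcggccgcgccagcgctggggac
EFNB1: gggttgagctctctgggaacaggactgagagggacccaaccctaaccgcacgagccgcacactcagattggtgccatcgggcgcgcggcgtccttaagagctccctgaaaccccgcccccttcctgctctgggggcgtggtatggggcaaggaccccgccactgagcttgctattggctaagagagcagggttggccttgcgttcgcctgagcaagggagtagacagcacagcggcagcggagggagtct

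In these windows the E-box began 80 bases before the start of EPHA1, 62 before that of EPHB2 and 167 before that of EFNB2. These 3 genes were all called lower in both lines, as was EPHB3, whose window holds no E-box. EPHA10, also called lower in both, had no window. The windows of the genes not called lower in both lines, EPHA2, EPHA4, EPHB4, EFNA1 and EFNB1, held no E-box either. Whether the E-box has a part in any of these values was not tested.

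**Figure D5:**
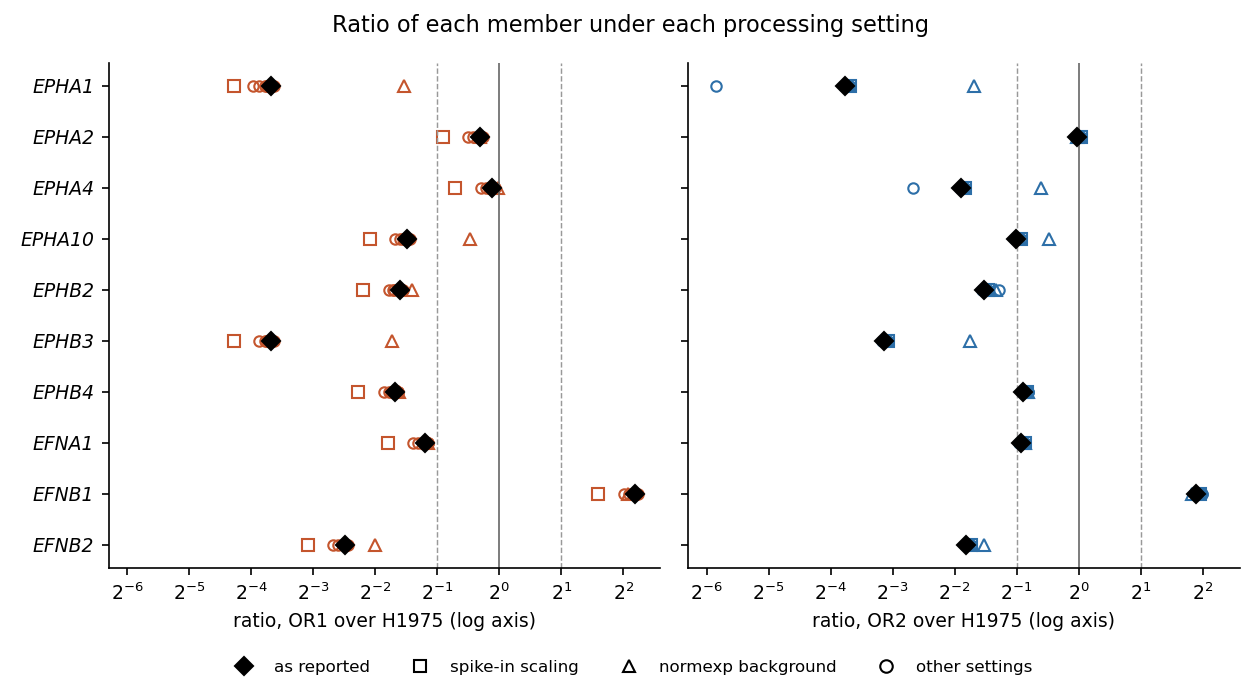
Ratio of each of the 10 genes over H1975, OR1 on the left and OR2 on the right, on a log axis, as reported (diamonds) and under 12 other processing settings. Dashed lines mark ratios of 0.5 and 2. Spike-in scaling (squares) moves every OR1 ratio to the left by the same amount, and EFNB1 stays at or above 3.02 in all settings. Normexp (triangles), which adds an offset of 50, draws the dim genes EPHA1, EPHA4, EPHA10 and EPHB3 towards 1. The circles far to the left in the OR2 panel are EPHA1 and EPHA4 without a bound at the background.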

How the data were processed

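The authors labeled complementary RNA of each line with Cy3 and hybridized it to 1 Agilent human array of 60-base probes. The deposited scanner files hold the intensity of each spot, corrected by the scanner software for background and for trends within the array and not scaled between arrays, with an error estimate per spot. A second deposited table holds the authors' normalized values, 1 per probe. Its scale was found from the scanner values, since its log2 values differed from quantile-normalized intensities by a median of 0.0013 over 58200 probes. The file headers name Agilent Feature Extraction 10.7.1.1 and the submitters' processing notes 9.5.1.1. Lines were assigned by the sample labels.

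Control and outlier spots were removed. Spots of the same probe were combined as the mean of their log2 values, from which the array's 75th percentile was taken off. The probe with the highest mean stood for a gene, and every probe of the 10 genes is reported. Probe positions are those of the files (hg19). All 15 RefSeq accessions of the 16 probes were found in a RefSeq table with the same symbol. The 10 genes, the family, signalling and marker lists, the stretch of chromosome 7 and the alternatives were chosen with earlier results of these data known. Named genes are the 22 family genes, signalling genes called alike in both lines, 3 proteases of that list named for comparison after their values were seen, and the 3 genes nearest to EFNB1. The calling rule was tested on simulated data with known changes. The 14 alternatives are given in the closing section. Python 3.11.15, numpy 2.4.6, pandas 2.3.3, matplotlib 3.10.9, R 4.3.3 and limma 3.58.1 were used.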

Additional observations from a re-analysis of the deposited data

How the results depend on the processing

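The results were recomputed under 14 alternatives, of which 12 apply to the ratios. No result changed direction in a called value. Of 343 recomputed ratios of single genes, 300 moved by less than 1 technical SD. With ratios of 4 and 0.25, 2 of the 10 genes were called lower in both lines and 0 higher, of the family 2 lower and 1 higher, and of the signalling list 2 lower. With a ratio of 1.5 and its inverse, 8 family genes were called lower and 5 signalling genes higher. The median log2 ratio of the 10 genes in OR1, -1.54 as reported, was -2.14 with spike-in scaling and -1.28 with normexp. In OR2, -1.27 as reported, it was -0.84 with normexp and -0.97 when all 3 arrays had to be well above background, which leaves out EPHA1 and EPHA4. Spike-in scaling rests on 7 probes and moved the OR1 median over all genes by -0.60, and it moved by -0.19 without scaling and by -0.11 with scaling on the median. EPHA1 had no value with detection required on all arrays. With 1 array per line no replicate could be left out. No paired analysis was possible because each line has 1 array. Low signal over background limits EPHA1, EPHA4, EPHA10 and EPHB3, and 1 array per line limits every ratio.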
